A study of Mus musculus with 6 samples.

Results

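The genes of the constitutive proteasome were examined in the spinal cord of mice that lacked Sox2 in astrocytes. They were the protein-coding genes whose symbol starts with Psma, Psmb, Psmc, Psmd, Psme, Psmf or Psmg and a number, with a summed count of at least 30 over the libraries and without the immunoproteasome genes Psmb8, Psmb9 and Psmb10. Of the 35275 genes in the count table, 54 matched the letters and 46 met the rule. Besides the 3 immunoproteasome genes, the rule left out Psmb11, a thymus subunit with a summed count of 18, and 4 pseudogenes. One of the 46, Psmc3ip, matched by its letters alone: it encodes a partner protein of Psmc3 known for its part in meiotic recombination.

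Whole spinal cords of 3 Sox2 cKO mice (mGfap-Cre:Sox2fl/fl) and 3 control (Ctrl) mice, all C57BL/6, gave the poly(A) RNA that was sequenced. In the Sox2 cKO mice Cre, driven by the mouse Gfap promoter, removes floxed Sox2 in astrocytes. The sample labels give the controls as mGfap-Cre:Sox2+/+, the study's methods as Sox2fl/fl littermates and the series text as carrying either Cre or the floxed allele. The labels put the age at postnatal day 90 and the series text at day 80. The deposited records give an RNA integrity number, a measure of RNA quality, above 6.8, and the study's methods give a higher bound. The methods place females and males in each group, and the columns do not say which library came from which sex. Libraries are called by the numbers of the deposited columns, of which 2, 4 and 6 were taken as Ctrl and 1, 3 and 5 as Sox2 cKO. The numbers match no sample name, and the blot in which the study numbers its mice uses the same split. Libraries held between 21507911 and 28392184 counts. Values by library are given in the order 2, 4 and 6 for Ctrl, then 1, 3 and 5 for Sox2 cKO. Sox2, the deleted gene, had 19.9, 14.8 and 29.5 CPM in Ctrl and 3.16, 2.69 and 2.98 in Sox2 cKO, where CPM are counts scaled to the TMM-adjusted depth.

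The proteasome degrades proteins that carry ubiquitin chains. Its 20S core is a barrel of stacked rings, in which α subunits form the gated outer rings and β subunits the inner rings with the catalytic sites. The 19S particle caps the barrel: its ATPases unfold substrates and open the gate, and its other subunits bind ubiquitin, remove it and hold the particle together. Dedicated chaperones assemble each particle, and other caps and inhibitors can take the place of the 19S.

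Of the 46 genes, 45 passed the filter on low counts. The gene that did not was Psma8, the α subunit of the testis, with a summed count of 34. In edgeR's quasi-likelihood test, with p-values adjusted over all 16137 genes tested, 18 members rose in Sox2 cKO spinal cord, 3 fell and 24 did not pass. Over all genes tested, 12.2% rose and 12.4% fell, 24.6% in all, so that 49.4% of the calls were higher, against 74.5% with limma on log2(FPKM + 1), which called 23 members higher and 2 lower. The median log2 fold change was 0.24 for the members, with a range from -0.61 to 1.05, and 0.02 for all genes. DESeq2, which called 28.1% of all genes, called the same 18 members higher and 5 lower, the 3 with Psmc5 and Psme3. All 7 tested α genes rose and 4 of 7 β genes rose, whereas the 6 ATPase genes split into 3 that rose, 1 that fell and 2 that did not pass. Of the 11 other 19S subunit genes, 1 rose and 2 fell. The CPM of Sox2 cKO lay above that of Ctrl in every library for 26 members, where 22.6% of all genes did so, and below it for 5, where 22.1% did so (44.7% of all genes in either direction). In whole tissue, a change in the number of cells of a type and a change in RNA per cell cannot be told apart. The p-values set the difference of the groups against the spread between libraries. With 1 library per mouse, the spread between mice and that of library preparation cannot be told apart. An exact permutation test of 1 gene in 3 mice against 3 cannot give p below 0.1.

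**Figure D1:**
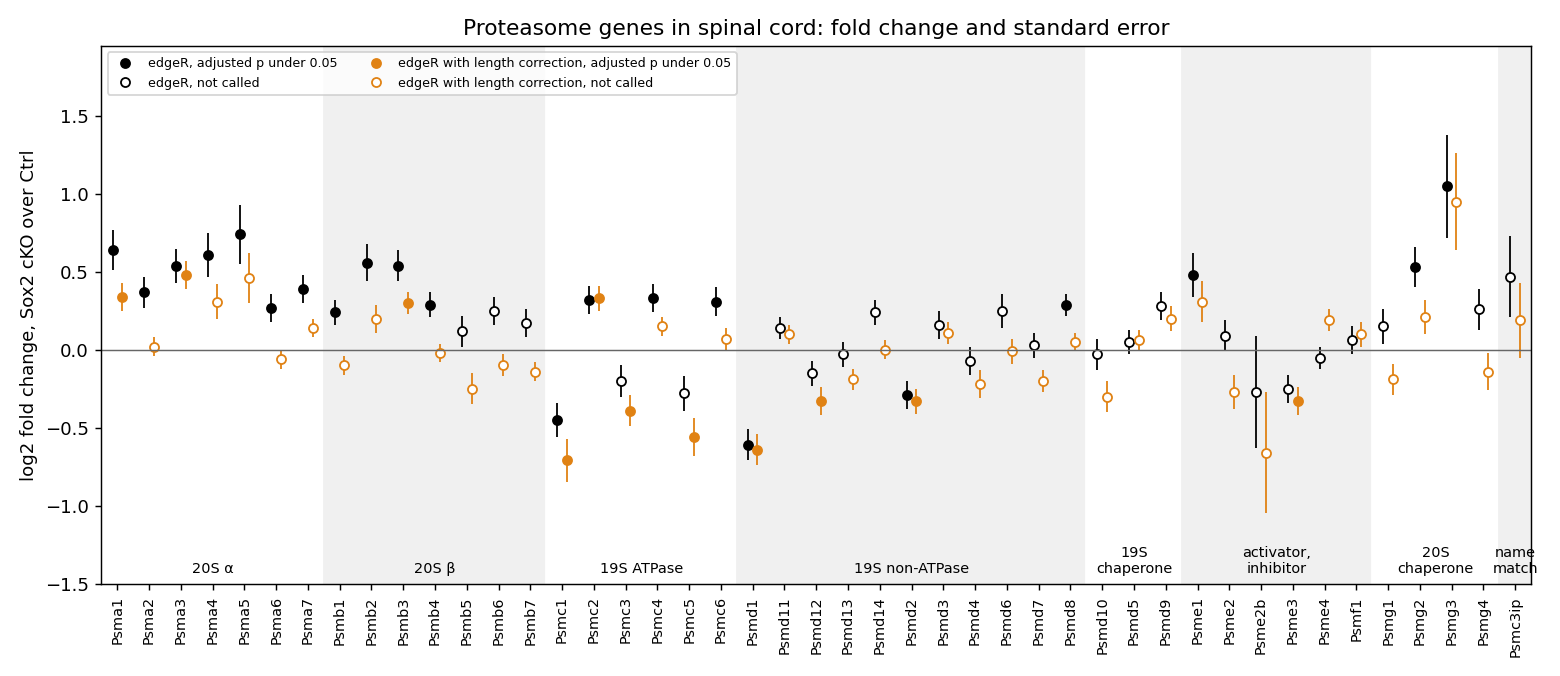
Each point is the log2 fold change of 1 gene, Sox2 cKO over Ctrl, with its standard error, in order of role. Black points come from edgeR and orange points from edgeR after the trend of every library with gene length was removed. Filled points had an adjusted p under 0.05. All 7 α genes are filled black and above 0, and 2 of them are filled orange.

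Short genes tended to be higher and long genes lower in Sox2 cKO, and most proteasome genes are short. All tested genes were sorted by length and cut into 5 bins. The shortest bin, of up to 1708 bases, held 27 of the 45 members, of which 13 rose and 1 fell. Over all 3229 genes of that bin, 30.4% rose and 1.73% fell. In the next bin, 3 of 7 members rose and none fell, where 15.3% of all genes rose. In the middle bin, 2 of 9 rose and 2 fell, where 8.24% rose and 7.03% fell. Psmf1 and Psme4 stood alone in the longer bins, and neither passed the test. Libraries of a group also differed from each other. Over all tested genes, Ctrl library 2 was nearer to Sox2 cKO libraries 5 and 3 than to Ctrl libraries 4 and 6. The chi-square per degree of freedom of a pair, larger where counts differ more, was 11.4 and 15.8 against 26.5 and 30.9. With Sox2 cKO library 1 it was 29.8. The trend with length differed between libraries of a group as well. The median log2 deviation of the shortest bin minus that of the longest was -0.05, -0.39 and -0.34 in Ctrl and 0.42, 0.18 and 0.19 in Sox2 cKO. The median deviation of the 7 α genes was likewise low in Ctrl libraries 4 and 6, with 0.02, -0.34 and -0.42 in Ctrl and 0.39, 0.21 and 0.18 in Sox2 cKO.

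**Figure D2:**
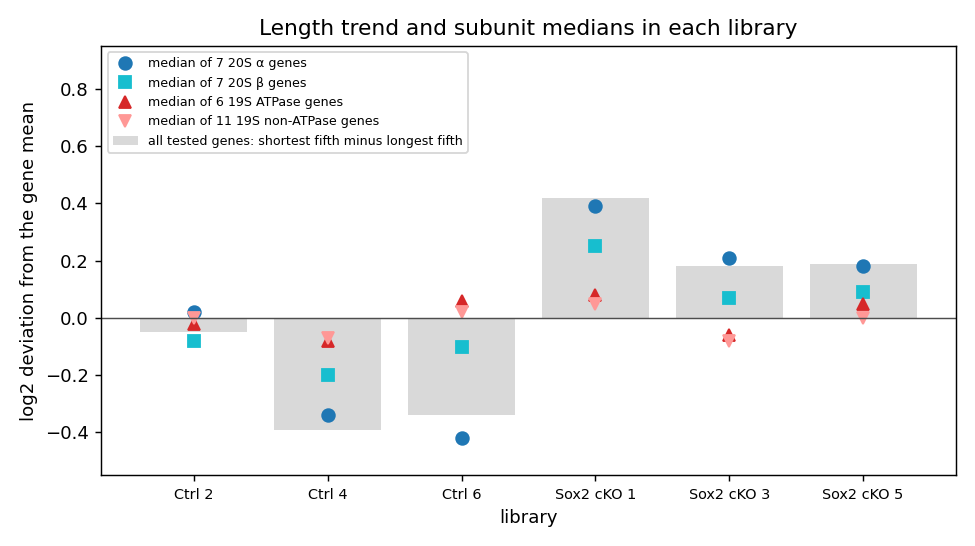
Grey bars give, for each library, the median log2 deviation from the gene mean of the shortest of 5 length bins of all tested genes minus that of the longest, and symbols give the median deviation of the genes of each role. Bars and α medians are above 0.1 in all Sox2 cKO libraries, and below -0.3 in Ctrl libraries 4 and 6, with Ctrl library 2 near 0.

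The fit was therefore repeated with a length correction, in which the trend of every library with gene length was removed. Of the 18 members that rose, 4 were still called, namely Psma1, Psma3, Psmb3 and Psmc2. The 3 that fell were called again, and Psmc3, Psmc5, Psmd12 and Psme3 joined them. The share of all genes called with the correction was 6.08% higher and 6.99% lower, 13.1% in all, against 4 and 7 of 45 members, and the median of the members was 0.00. The corrected CPM of Sox2 cKO lay above that of Ctrl in every library for 13 members and below it for 15, where 18.1% and 19.3% of all genes did so, or 37.4% in all. The length behind the deposited FPKM can exceed or fall short of that of the main transcript, as for Psmc2, with 3466 against 1785 bases, and Psma2, with 944 against 2911. With the length of the principal transcript, a setting added after the data were seen, Psma1, Psma2 and Psma3 were called higher and the same 7 members lower, where 5.62% of all genes were higher and 6.44% lower (12.1% in all). With all 6 libraries, Psma1, Psma3, Psmc1, Psmd1 and Psmd2 were thus called in the same direction in each of these edgeR fits. These are the fits without a correction, with the deposited length and with the principal transcript length. The number of calls also changed with the library left out, among the members as over all genes. Without Sox2 cKO library 1 or without Ctrl library 4, edgeR called 0 members, with 20 and 17 members higher and 3 and 3 lower at an unadjusted p under 0.05. Over all genes, edgeR called 8 without library 1 and 26 without library 4. DESeq2 called 8 members higher and 3 lower without library 1, where it called 17.5% of all genes, and 7 and 2 without library 4, where it called 14.3%. In edgeR, 5 members were higher and 1 lower without Sox2 cKO library 3 (8.31% of all genes called), 3 and 1 without Ctrl library 6 (6.54%), 11 and 2 without Sox2 cKO library 5 (16.3%), and 22 and 5 without Ctrl library 2 (36.9%). All 18 kept a positive and all 3 a negative fold change in each of these 6 fits. This was largely set in advance, as they were picked by their calls. The CPM of none of them overlapped between groups, so leaving out 1 library could hardly turn a sign. With the length correction, edgeR called 0 members without library 1, 3, 4 or 6, where at most 0.429% of all genes were called. It called 9 higher and 13 lower without library 2 (26.9%), and 3 and 3 without library 5 (6.53%). In these corrected fits, all 3 stayed negative, and 14 (without library 4) or 15 of the 18 stayed positive.

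**Figure D3:**
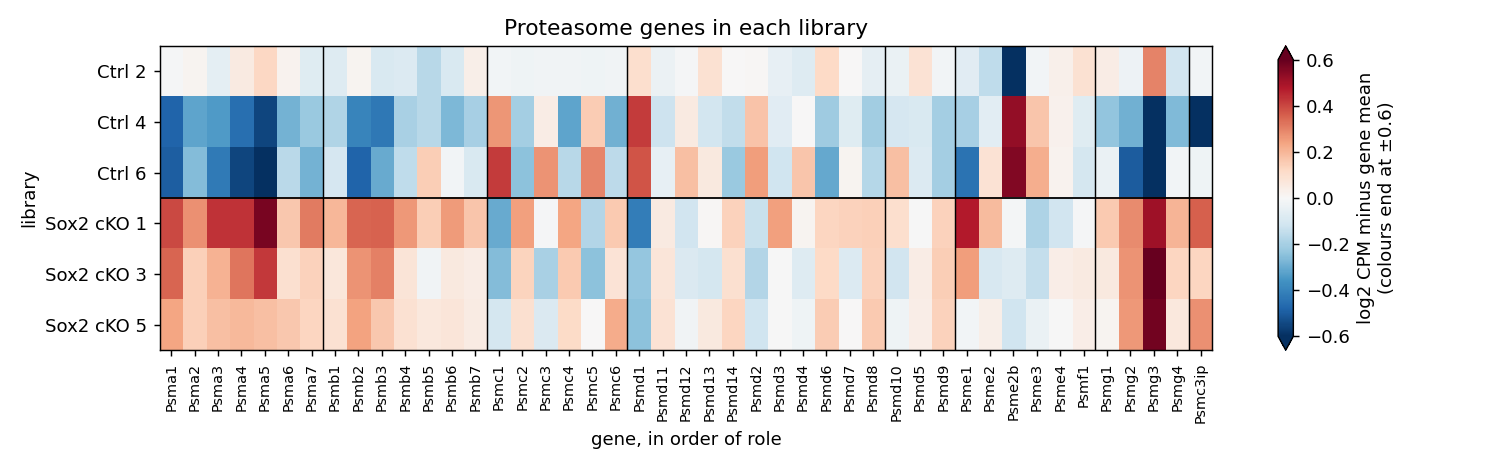
Colour gives log2 CPM minus the gene mean for each tested member (columns, in order of role) in each library (rows), red above and blue below the mean, with colours ending at 0.6. The α block is blue in Ctrl libraries 4 and 6, near 0 in Ctrl library 2 and red in the 3 Sox2 cKO libraries, and Psmc1 and Psmd1 show the opposite colours.

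The promoters of 4 genes called in the same direction with and without the length correction are shown as examples, Psma1 and Psma3 among those that rose and Psmc1 and Psmd1 among those that fell. Each run holds 250 bases before and 50 bases after the start in RefSeq on GRCm38.p6, read 5′ to 3′ on the strand of the gene. For Psmd1 the gene begins at 86064387 in GENCODE M21, near the left end of the window. Most of its bases before the RefSeq start thus lie within that gene. Capitals mark CCAAT, the letters bound by the factor NF-Y, on either strand, where the other strand reads ATTGG.
Psma1, chr7:114276067-114276366, minus strand: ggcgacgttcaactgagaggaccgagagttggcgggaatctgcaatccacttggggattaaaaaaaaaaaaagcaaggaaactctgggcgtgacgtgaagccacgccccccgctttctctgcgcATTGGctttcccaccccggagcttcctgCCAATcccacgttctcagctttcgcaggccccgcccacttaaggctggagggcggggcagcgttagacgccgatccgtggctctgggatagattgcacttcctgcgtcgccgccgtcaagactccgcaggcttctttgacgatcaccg
Psma3, chr12:70974373-70974672, plus strand: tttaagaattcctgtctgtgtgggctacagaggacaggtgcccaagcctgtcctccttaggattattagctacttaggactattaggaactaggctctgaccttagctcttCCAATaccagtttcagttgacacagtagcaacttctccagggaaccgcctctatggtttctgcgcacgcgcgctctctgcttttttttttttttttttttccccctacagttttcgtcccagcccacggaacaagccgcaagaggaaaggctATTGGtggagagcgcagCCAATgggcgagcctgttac
Psmc1, chr12:100109952-100110251, plus strand: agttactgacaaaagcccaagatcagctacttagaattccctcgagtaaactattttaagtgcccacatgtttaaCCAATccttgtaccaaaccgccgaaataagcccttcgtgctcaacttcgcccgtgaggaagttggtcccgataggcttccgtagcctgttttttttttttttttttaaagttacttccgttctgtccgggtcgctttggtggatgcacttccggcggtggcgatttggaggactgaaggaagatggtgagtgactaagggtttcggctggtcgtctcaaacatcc
Psmd1, chr1:86064369-86064668, plus strand: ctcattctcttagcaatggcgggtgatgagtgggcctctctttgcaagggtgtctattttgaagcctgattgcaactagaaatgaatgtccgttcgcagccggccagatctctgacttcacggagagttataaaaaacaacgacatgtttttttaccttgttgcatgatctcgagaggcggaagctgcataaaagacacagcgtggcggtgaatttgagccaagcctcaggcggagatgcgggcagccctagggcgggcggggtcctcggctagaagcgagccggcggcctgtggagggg
In Psma1 the 2 matches begin 126 and 98 bases before the start. Psma3 held 1 match beginning 139 bases before the start and 2 beginning 13 and 30 bases after it, Psmc1 held 1 beginning 175 bases before it, and Psmd1 held none. CCAAT was found in 13 of the 38 members that have a window, 34.2%, and in 41.1% of the 27025 genes with a window. It was found in 5 of 7 α genes, Psma1, Psma2, Psma3, Psma6 and Psma7. Among the other subunits with a window, 1 of 4 β, 2 of 5 ATPase and 2 of 9 non-ATPase genes held it. Of the members called higher in edgeR, 7 of 15 held it (46.7%), and of those called lower, 1 of 3. The core of the antioxidant response element, TGACNNNGC or GCNNNGTCA, which is bound by the proteasome regulator Nfe2l1 and its relative Nfe2l2, was in none of the printed windows. It was found in 6 of 38 members (Psmb5, Psmb6, Psmc6, Psmd12, Psmd9 and Psme4), 15.8%, and in 14% of all genes.

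The α genes gave the largest fold changes of the core. Psma5 (ENSMUSG00000068749, chromosome 3, 108256926 to 108279974 on mm10), a ring subunit, had 55.8, 35.0 and 30.4 CPM in Ctrl and 76.1, 68.7 and 58.1 in Sox2 cKO. All Sox2 cKO values lay above all Ctrl values, with Ctrl library 2 close to Sox2 cKO library 5. Its log2 fold change was 0.74 (SE 0.19, adjusted p = 0.024 from edgeR), and 0.46 (adjusted p = 0.077) with the length correction. Psma1 (ENSMUSG00000030751), its neighbour in the ring, had 56.0, 40.3 and 40.0 CPM in Ctrl and 74.1, 71.7 and 66.4 in Sox2 cKO, again without overlap. The log2 fold change of Psma1 was 0.64 (SE 0.13, adjusted p = 0.013 from edgeR), or 1.56 in fold, and 0.34 (adjusted p = 0.037) with the length correction. Psma3, another ring subunit, had 82.5, 68.0 and 64.1 CPM in Ctrl and 116, 99.2 and 97.4 in Sox2 cKO. The deposited length of Psma3 is 2846 bases, the longest of the α genes, and its log2 fold change moved little with the correction, from 0.54 to 0.48 (adjusted p = 0.013 and 0.019 from edgeR).

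Psma6 had the smallest change of the ring. It had 94.5, 76.5 and 83.2 CPM in Ctrl and 104, 99.4 and 104 in Sox2 cKO, with a log2 fold change of 0.27 (adjusted p = 0.048 from edgeR) that turned to -0.06 (adjusted p = 0.54) with the length correction. Psma2, Psma4 and Psma7 rose by 0.37, 0.61 and 0.39 on the log2 scale. With the length correction none of these 3 was called, with 0.02, 0.31 and 0.14. The α median was 0.54 before and 0.31 after the correction, and 6 of 7 α genes kept a positive value.

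Among the β genes, edgeR called the 4 structural subunits higher and none of the 3 catalytic ones, though their fold changes overlapped. The structural genes ran from 0.24 to 0.56 on the log2 scale and the catalytic genes from 0.12 to 0.25. With upper quartile normalization 1 of the 3 catalytic genes was called, and with the principal transcript length 0 of the 4 structural genes. Psmb2, a structural subunit, had 42.1, 31.6 and 29.8 CPM in Ctrl and 52.9, 50.1 and 49.1 in Sox2 cKO. Psmb3, which sits beside it in the ring, had 55.8, 44.2 and 48.2 in Ctrl and 76.1, 73.4 and 66.5 in Sox2 cKO. Neither gene overlapped between groups, and both log2 fold changes were near 0.5, at 0.56 for Psmb2 (SE 0.12, adjusted p = 0.016 from edgeR) and 0.54 for Psmb3 (SE 0.10, adjusted p = 0.013). With the length correction, Psmb3 kept 0.30 (adjusted p = 0.029) and Psmb2 0.20 (adjusted p = 0.17). For Psmb3 the deposited length is 1509 bases against 766 for the principal transcript, and with that length its value was 0.16 (adjusted p = 0.15). Psmb1 and Psmb4, which are also structural, rose by 0.24 and 0.29 (adjusted p = 0.047 and 0.032 from edgeR), with -0.10 and -0.02 after the length correction.

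The 3 catalytic genes did not pass the test. Psmb5, the chymotrypsin-like site, had 69.8, 69.8 and 87.0 CPM in Ctrl and 86.9, 77.2 and 82.0 in Sox2 cKO. Psmb6, the caspase-like site, had 92.8, 82.1 and 97.8 in Ctrl and 118, 103 and 104 in Sox2 cKO. Psmb7, the trypsin-like site, had 166, 141 and 152 in Ctrl and 182, 167 and 168 in Sox2 cKO. Psmb5 overlapped between groups, and Psmb6 and Psmb7 did not. Their log2 fold changes were 0.12, 0.25 and 0.17 (adjusted p = 0.40, 0.069 and 0.18 from edgeR), and all 3 turned negative with the length correction, at -0.25, -0.10 and -0.14 (adjusted p = 0.12, 0.36 and 0.13). Psmb7 shares up to 253 exonic bases with Nek6 on the opposite strand, and the strand setting of the counting is not given in the sources used here. The β median was 0.25 and turned to -0.10 with the length correction. Whether the catalytic and structural genes differed was not tested.

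The counterparts that replace the catalytic subunits in the immunoproteasome, which immune cells and inflamed tissue are known for, were low for the most part. Psmb8 (for Psmb5) had 1.35, 1.46 and 1.5 CPM in Ctrl and 3.12, 1.81 and 1.59 in Sox2 cKO (log2 fold change 0.59, adjusted p = 0.16 from edgeR). Psmb9 (for Psmb6) had 1.62, 1.58 and 1.5 in Ctrl and 2.59, 2.08 and 1.44 in Sox2 cKO (0.37, adjusted p = 0.31). Psmb10 (for Psmb7) was the abundant one, with 34.9, 29.6 and 31.8 CPM in Ctrl and 47.7, 40.9 and 40.6 in Sox2 cKO. Psmb10 rose by 0.42 (adjusted p = 0.018 from edgeR), and had 0.13 (adjusted p = 0.24) with the length correction. Per length, Psmb10 was at 0.192, 0.191 and 0.190 of the FPKM of Psmb7 in Ctrl and at 0.239, 0.224 and 0.220 in Sox2 cKO. Psmb8 over Psmb5 and Psmb9 over Psmb6 were at most 0.0164 in any library and overlapped between groups.

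The ATPase genes of the 19S base moved in both directions. Psmc1 (ENSMUSG00000021178, chromosome 12, 100110154 to 100123405), whose tail docks on the α ring and opens the gate, had 322, 391 and 435 CPM in Ctrl and 264, 272 and 303 in Sox2 cKO. All Sox2 cKO libraries were below all Ctrl libraries. The log2 fold change of Psmc1 was -0.45 (SE 0.11, adjusted p = 0.022 from edgeR) and -0.71 (SE 0.14, adjusted p = 0.019) with the length correction. Psmc5, the member of highest FPKM, had 383, 434 and 479 CPM in Ctrl and 346, 329 and 391 in Sox2 cKO, so Ctrl library 2 lay within the range of Sox2 cKO. Its log2 fold change of -0.28 (adjusted p = 0.074 from edgeR) did not pass, whereas -0.56 with the length correction (adjusted p = 0.024) did. DESeq2 called Psmc5 lower as well, at -0.29 (adjusted p = 0.030). Psmc3, another ATPase, had -0.20 (adjusted p = 0.16) and -0.39 (adjusted p = 0.032) with the length correction. Psmc3 shares up to 147 exonic bases with Slc39a13 on the opposite strand.

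The other 3 ATPases rose. Psmc2 had 100, 88.5 and 85.9 CPM in Ctrl and 121, 112 and 109 in Sox2 cKO, and Psmc4, another ATPase of the ring, had 71.9, 58.7 and 65.0 in Ctrl and 86.2, 81.4 and 79.0 in Sox2 cKO. Both were free of overlap, with log2 fold changes of 0.32 and 0.33 (adjusted p = 0.026 and 0.025 from edgeR). With the length correction Psmc2 kept 0.33 (adjusted p = 0.027) and Psmc4 0.15 (adjusted p = 0.13). With the principal transcript length Psmc2 had 0.11 (adjusted p = 0.22). Psmc6 rose by 0.31 (adjusted p = 0.030), and had 0.07 with the length correction. On the deposited lengths, the ratio of the FPKM of Psmc1 to that of Psmc2, subunits found in equal number in each particle, was 7.35, 10.1 and 11.6 in Ctrl and 4.96, 5.55 and 6.36 in Sox2 cKO.

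Psmd1 (ENSMUSG00000026229, chromosome 1, 86064387 to 86139151), the large scaffold of the 19S base, had the strongest fall of the members in edgeR without a correction. It had 141, 176 and 171 CPM in Ctrl and 98.6, 112 and 111 in Sox2 cKO, with the groups well apart. The log2 fold change was -0.61 (SE 0.10, adjusted p = 0.012 from edgeR) and -0.64 (SE 0.10, adjusted p = 0.017) with the length correction. Psmd2, the other large base subunit, which receives shuttle factors carrying ubiquitinated proteins, had 277, 310 and 328 CPM in Ctrl and 251, 244 and 254 in Sox2 cKO. Its log2 fold change was -0.29 (SE 0.09, adjusted p = 0.037 from edgeR) and -0.33 (adjusted p = 0.031) with the length correction. Psmd1 and Psmd2 were the only non-ATPase genes that fell in edgeR without a correction, and both were lower in every Sox2 cKO library than in any Ctrl library. With upper quartile normalization, Psmd2 was not called lower.

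Psmd8, a small lid subunit, had 64.2, 57.7 and 59.1 CPM in Ctrl and 73.5, 73.3 and 74.3 in Sox2 cKO. Psmd8 was the single non-ATPase member that rose, by 0.29 (SE 0.07, adjusted p = 0.023 from edgeR), and had 0.05 with the length correction. Psmd6, another lid subunit, had 85.1, 67.5 and 63.3 CPM in Ctrl and 85.5, 85.0 and 86.9 in Sox2 cKO, with Ctrl library 2 inside the Sox2 cKO range, and 0.25 (adjusted p = 0.10) turned to -0.01 with the length correction. Psmd14, the deubiquitinase that removes the chain, had 0.24 (adjusted p = 0.050 from edgeR, just over the threshold). Its lid partner Psmd7 and the ubiquitin receptor Psmd4 had 0.03 and -0.07. Psmd12, a lid subunit, had -0.15 (adjusted p = 0.19) and -0.33 (adjusted p = 0.037) with the length correction. Psmd3, Psmd11 and Psmd13 lay between -0.03 and 0.16. Psmd13 shares up to 329 exonic bases with Sirt3 on the opposite strand. The median of the 11 non-ATPase genes was 0.03, and -0.19 with the length correction.

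Subunits that the symbol rule misses were counted apart, with the shuttle factors, deubiquitinases and other partners of the proteasome. Of these 17 genes, 3 rose and 3 fell, where 12.2% and 12.4% of all genes did so, and with the length correction 2 were higher and 1 lower. Sem1, the smallest lid subunit, had 45.2, 33.8 and 37.1 CPM in Ctrl and 62.8, 62.5 and 56.6 in Sox2 cKO. Sem1 rose by 0.65 (SE 0.11, adjusted p = 0.012 from edgeR), with 0.40 (adjusted p = 0.021) after the length correction. Adrm1, a ubiquitin receptor, had 48.5, 47.4 and 47.8 in Ctrl and 63.7, 55.8 and 56.6 in Sox2 cKO. Adrm1 rose by 0.29 (adjusted p = 0.028), with 0.36 (adjusted p = 0.022) after the correction, but 0.03 (adjusted p = 0.76) with the principal transcript length, where Sem1 kept 0.39 (adjusted p = 0.022). Txnl1, a thioredoxin of the 19S, also rose, by 0.27 (adjusted p = 0.040), with 0.18 (adjusted p = 0.086) after the length correction and 0.36 (adjusted p = 0.027) with the principal transcript length. The genes that fell were Ecpas, a proteasome adaptor, Ubqln1, a shuttle factor, and Ddi2, a protease that activates Nfe2l1, at -0.39, -0.34 and -0.32 (adjusted p = 0.023, 0.026 and 0.040 from edgeR). With the length correction, Ubqln1 kept -0.31 (adjusted p = 0.034), Ecpas had -0.12 and Ddi2 0.04.

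Of the 4 chaperones of the 20S core, which act as pairs, 1 of each pair rose, where 12.2% of all genes did so. Psmg3 was the member of largest fold change, with 3.45, 1.46 and 1.26 CPM in Ctrl and 4.0, 4.61 and 4.19 in Sox2 cKO. Its log2 fold change was 1.05 (SE 0.33, adjusted p = 0.041 from edgeR), and 0.95 (adjusted p = 0.069) with the length correction. The level of Psmg3 was low and Ctrl library 2 stood apart from the other 2 Ctrl libraries: without it the log2 fold change was 1.65. Psmg2 had 12.1, 10.1 and 8.74 CPM in Ctrl and 15, 14.9 and 14.8 in Sox2 cKO, a rise of 0.53 (adjusted p = 0.021), with 0.21 after the length correction. Psmg1, which pairs with Psmg2, had 14.1, 11.6 and 13.3 CPM in Ctrl and 15.2, 14.2 and 13.8 in Sox2 cKO (0.15, adjusted p = 0.36, and -0.19 with the length correction). Psmg4, the partner of Psmg3, had 0.26 (adjusted p = 0.16). Pomp, the maturation factor that closes the core during assembly and is counted among the partners, had 123, 102 and 117 CPM in Ctrl and 135, 129 and 142 in Sox2 cKO. The groups of Pomp did not overlap, yet 0.25 did not pass (adjusted p = 0.069), and the value turned to -0.13 with the length correction.

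None of the 3 chaperones of the 19S base passed the edgeR test. At an unadjusted p under 0.05, 1 of them was higher, and DESeq2 called 0 of 3. Upper quartile normalization, a correction for GC content and limma on log2(FPKM + 1) each called 1 of the 3 higher. Psmd9 had 19.8, 17.4 and 17.4 CPM in Ctrl and 22.0, 22.2 and 22.0 in Sox2 cKO (0.28, adjusted p = 0.053). Psmd5 had 49.2, 43.5 and 43.8 CPM in Ctrl and 46.3, 47.8 and 47.6 in Sox2 cKO, and Psmd10, known as gankyrin, had 24.7, 23.7 and 28.8 in Ctrl and 27.2, 23.4 and 24.9 in Sox2 cKO. The groups of Psmd5 and Psmd10 overlapped, with 0.05 and -0.03.

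Among the alternative caps and the inhibitor, 1 of 6 rose, where 12.2% of all genes did so. Psme1, one chain of the activator that interferon induces, had 16.1, 14.7 and 12.4 CPM in Ctrl and 23.5, 20.1 and 16.7 in Sox2 cKO, a log2 fold change of 0.48 (SE 0.14, adjusted p = 0.038 from edgeR), with 0.31 (adjusted p = 0.12) after the length correction. Its partner Psme2 had 26.0, 27.6 and 30.6 CPM in Ctrl and 32.9, 27.0 and 29.6 in Sox2 cKO, which overlapped (0.09, adjusted p = 0.56, and -0.27 with the length correction). Psme2b, a near copy of Psme2 with which it may share reads, was between 0.628 and 1.69 CPM and is uncertain (-0.27, adjusted p = 0.60). Psme3, the nuclear activator, had -0.25 (adjusted p = 0.063) and -0.33 (adjusted p = 0.039) with the length correction. Psme4, the large single-chain activator, and the inhibitor Psmf1 had -0.05 and 0.06. Psmc3ip, the name match, was between 1.04 and 2.20 CPM, with 0.47 (adjusted p = 0.19).

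Levels of different genes were compared per length, as the FPKM deposited by the authors. Psmc5 and Psmc1 were the highest of the 31 subunit genes of the 20S and 19S, with mean FPKM of 299 ± 25.6 and 243 ± 30.2 (SD, n = 3) in Ctrl and 263 ± 20.2 and 190 ± 9.79 in Sox2 cKO. Their partners in the same hexamer, Psmc2 and Psmc4, had 25.5 and 33.5 in Ctrl and 34.1 and 45.2 in Sox2 cKO. Among the β genes, the order of mean FPKM in Ctrl ran from Psmb7, Psmb1, Psmb4, Psmb6 and Psmb5, at 128, 104, 93.9, 90.8 and 83.6, to Psmb2 and Psmb3 at 38.9 and 31.7. The values of Psmb1, Psmb4, Psmb6 and Psmb5 lay close to each other, and those of Psmb2 and Psmb3 were below them in every library. Among the α genes, Psma2 and Psma6 led with 86.9 and 78.6 in Ctrl and Psma3 was last with 24.3. These orders rest on the deposited lengths. On the length of the principal transcript, a rescaling added after the data were seen, the Ctrl means of Psmb1 and Psmb3 were 61.3 and 62.4, that of Psma2 was 28.2, that of Psma7, at 82.9, led the α genes, and that of Psmc2 was 49.5. Psmc5 and Psmc1 stayed the highest, at 316 and 232.

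**Figure D4:**
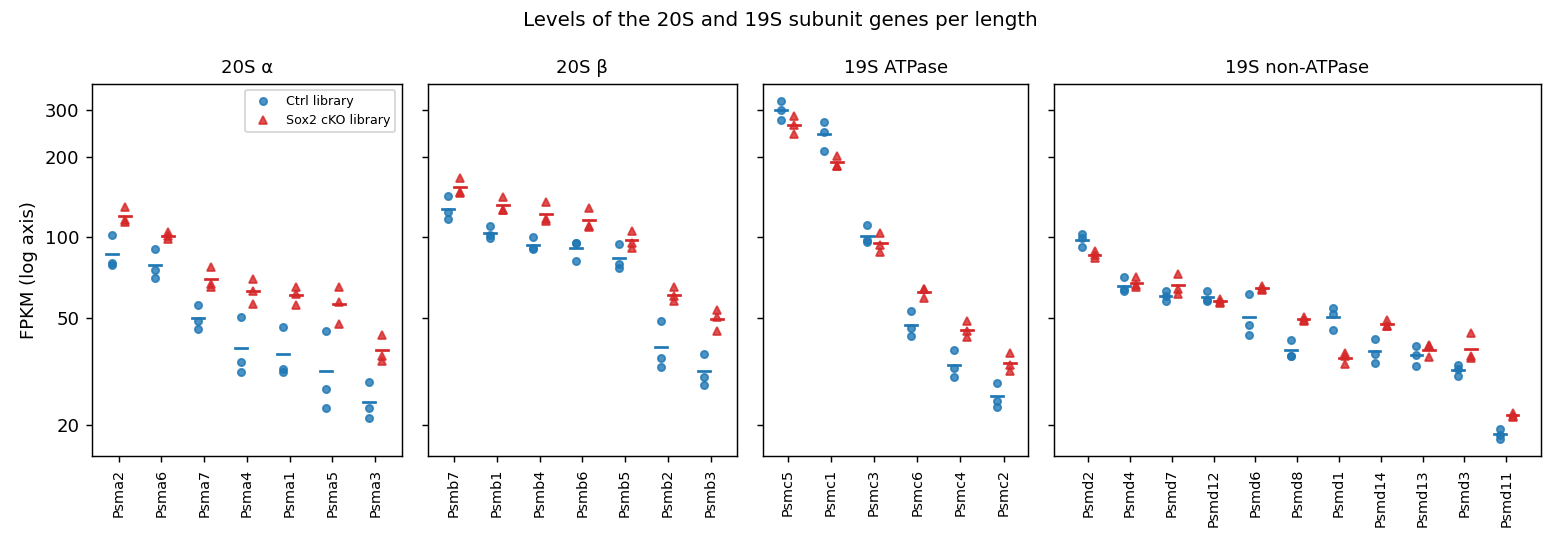
FPKM on a log axis for the 31 subunit genes, ordered within each role by their mean. Blue circles are the 3 Ctrl libraries, red triangles the 3 Sox2 cKO libraries, and lines the group means. All α and β genes have higher means in Sox2 cKO, and so have Psmc2, Psmc4 and Psmc6 among the ATPases. Psmc5 and Psmc1, which lead the ATPases, and Psmd2, which leads the non-ATPase genes, have lower means in Sox2 cKO. Psmc3, Psmd12 and Psmd1, of middle level, have lower means as well.

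The summed FPKM of the 14 genes of the 20S core was 1032, 843 and 878 in Ctrl and 1354, 1204 and 1168 in Sox2 cKO. For the 17 genes of the 19S particle it was 1256, 1279 and 1354 in Ctrl and 1295, 1212 and 1283 in Sox2 cKO. The core sum was thus higher in every Sox2 cKO library and the 19S sum overlapped. The length-corrected core sums lay closer, at 1058, 987 and 1000 in Ctrl and 1144, 1102 and 1065 in Sox2 cKO, and the 19S sums were 1263, 1409 and 1484 against 1162, 1147 and 1216, lower in every Sox2 cKO library. The ratio of both sums, which does not depend on the scaling of a library, was 0.822, 0.659 and 0.648 in Ctrl and 1.05, 0.993 and 0.911 in Sox2 cKO. After the correction it was 0.838, 0.700 and 0.673 against 0.985, 0.961 and 0.876, and on the principal transcript length 0.774, 0.623 and 0.613 against 0.987, 0.941 and 0.862. The sum of the α genes over that of the β genes was 0.681, 0.594 and 0.541 in Ctrl and 0.697, 0.708 and 0.683 in Sox2 cKO, with Ctrl library 2 close to Sox2 cKO library 5. FPKM is not scaled by TMM, and over the 5895 tested genes of mean FPKM 10 or more the sum was 335614 ± 11351 (SD, n = 3) in Ctrl and 364985 ± 6954 in Sox2 cKO.

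Within the complex, genes of low level tended to have the higher fold changes. Across the 14 core genes, Pearson's r between the log2 fold change and the log2 mean FPKM was -0.85, and -0.92 with the length-corrected fold change. Across the 17 genes of the 19S it was -0.59 and -0.75, and across all 31 it was -0.40 and -0.63. Across the 5895 genes of mean FPKM 10 or more it was 0.09 and -0.08. On the principal transcript length, for the level and for the correction, r was -0.68 and -0.90 across the core, -0.55 and -0.72 across the 19S and -0.39 and -0.62 across all 31. These values are across genes that share the same 6 libraries and are not independent, and level and fold change come from the same counts. Against log2 gene length, r was 0.37 and 0.63 across the core, -0.13 and 0.19 across the 19S and -0.39 and -0.06 across all 31. FPKM is divided by the gene length that the correction also uses, so level and corrected fold change are tied through length too.

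**Figure D5:**
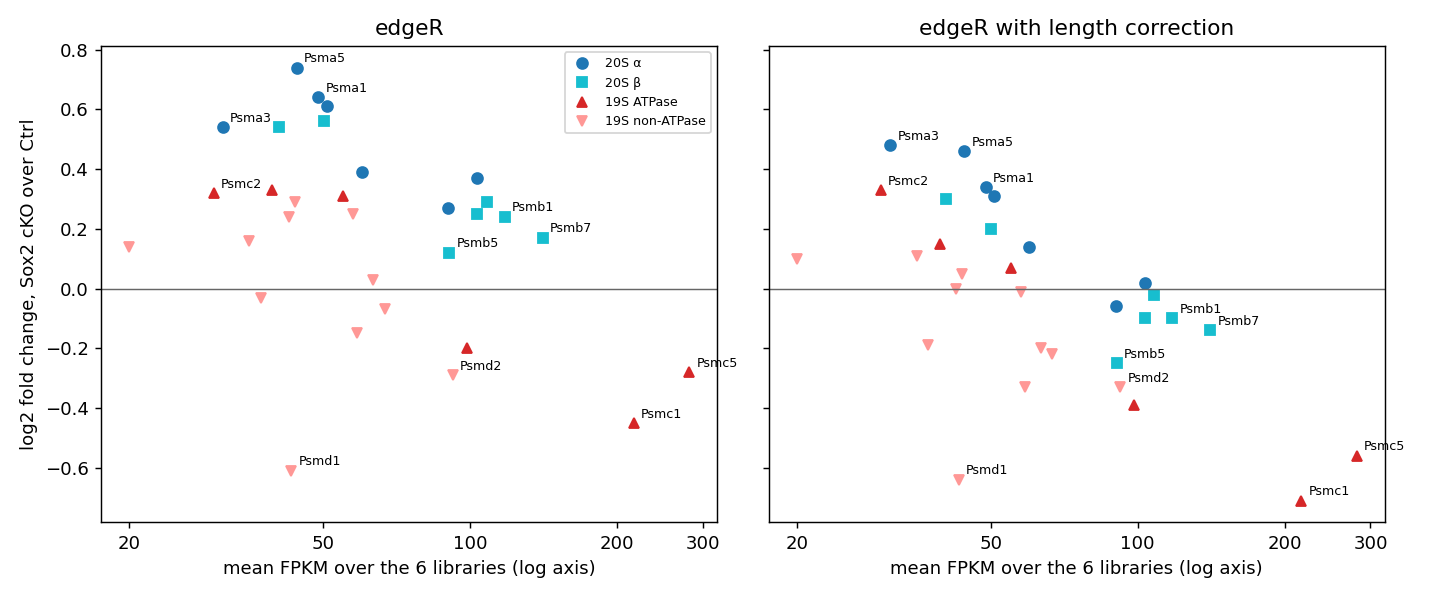
Log2 fold change against mean FPKM (log axis) for the 31 subunit genes, from edgeR (left) and from edgeR with the length correction (right), with symbols for the roles. Points fall from the upper left to the lower right in both panels, with Psmc1 and Psmc5 at the lower right and Psmd1 below the rest at a middle level.

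The levels of the subunits were accordingly closer to each other in Sox2 cKO. The SD of log2 FPKM over the 31 genes was 0.85, 0.96 and 1.02 in Ctrl and 0.80, 0.78 and 0.82 in Sox2 cKO. Over the 14 core genes it was 0.69, 0.80 and 0.90 in Ctrl and 0.61, 0.60 and 0.66 in Sox2 cKO, and over the 6 ATPases 1.33, 1.55 and 1.60 against 1.11, 1.14 and 1.25. The groups did not overlap in any of these, and Ctrl library 2 was the nearest to Sox2 cKO in each. With the length correction, the SD over the 31 genes was 0.86, 0.99 and 1.04 in Ctrl and 0.75, 0.76 and 0.80 in Sox2 cKO. On the principal transcript length it was 0.82, 0.94 and 1.0 in Ctrl and 0.79, 0.77 and 0.80 in Sox2 cKO, with Ctrl library 2 close to the Sox2 cKO libraries. Over the 5895 genes the uncorrected SD was 1.29, 1.28 and 1.32 in Ctrl and 1.34, 1.31 and 1.32 in Sox2 cKO, which overlapped. With the length correction it was 1.30, 1.31 and 1.34 in Ctrl and 1.29, 1.29 and 1.30 in Sox2 cKO. These groups overlapped too, with the mean lower in Sox2 cKO (1.29 against 1.32), the direction seen in the subunits.

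Several marker lists moved with the groups. The 10 astrocyte markers summed to 8449 to 10249 CPM in Ctrl and 6505 to 6737 in Sox2 cKO, and 5 of them fell and 1 rose. The 6 markers of oligodendrocyte precursors summed to 292 to 336 CPM in Ctrl and 179 to 230 in Sox2 cKO, with 5 that fell. The 7 neutrophil markers summed to 11.7 to 18.7 in Ctrl and 22.8 to 71.4 in Sox2 cKO, with 6 that rose. Of all genes tested, 12.2% rose and 12.4% fell. With the length correction, 2 of the astrocyte markers were lower and 0 higher, and 3 of the precursor markers were lower. Of the neutrophil markers, 4 were then higher, where 6.08% of all genes were higher and 6.99% lower. The sums given here are without that correction. The sums of the 10 neuron, 8 oligodendrocyte and 8 microglia markers overlapped between groups, at 9544 to 9989 against 9509 to 9833, 31655 to 35462 against 32022 to 34512, and 265 to 306 against 226 to 320 CPM. So did those of red blood cells (57.1 to 166 against 76.8 to 98.4), endothelium (191 to 217 against 207 to 295), Schwann cells (12332 to 14712 against 14596 to 15535, most of it Mbp) and meningeal fibroblasts (197 to 529 against 417 to 549). The part of these cell types in the proteasome values was not tested.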

How the data were processed

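Single-end reads of poly(A) RNA were aligned to mm10 with STAR 2.5 and counted per gene with HTSeq 0.6.1 by the authors, who deposited these counts and FPKM values. The authors' FPKM came from the same counts, the gene length and the library total. The strand setting of the counting is not given in the sources used here. Lengths recovered from both tables were whole (within 0.01) for all 24442 genes with a count. Columns 2, 4 and 6 were Ctrl and 1, 3 and 5 Sox2 cKO, with 0 further columns. Names came from GENCODE M21 (34490 of 35275 identifiers).

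The test of the counts was that of edgeR 4.0.16 in R 4.3.3 (filterByExpr, TMM, quasi-likelihood test, Benjamini-Hochberg at 0.05, no covariate). The biological coefficient of variation was 0.119. Standard errors came from the fold change and test statistic. The length correction was a lowess curve (span 0.3) of each library's log2 deviation on log2 length, used as an offset. Alternatives were DESeq2 1.42.0, upper quartile scaling, no filter, at least 10 counts in every library, limma 3.58.1 on log2(FPKM + 1) and log2(FPKM + 0.1) for genes of mean FPKM 0.5 or more, a GC correction, and each library left out. The main kinds of fit were tested on simulated counts with less spread between libraries than these data. Where a length trend was put in, it was the same in every Sox2 cKO library and absent in Ctrl, unlike here.

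Members, role lists, partner, regulator, ubiquitin and marker lists were chosen with earlier results of these data known. Genes given in every library were the catalytic genes and their counterparts, the 2 largest and 1 smallest fold changes of each role, the members that fell, the member of highest FPKM, and Sox2, Nfe2l1, Pomp, Adrm1 and Sem1. Other genes, such as Psma3, were named after their values were seen. 2 listed partners had no named row and are not analysed here. The counts are of reads without molecular identifiers.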

Additional observations from a re-analysis of the deposited data

How the results depend on the processing

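No paired analysis was possible because the columns carry no replicate numbers of the labels. The fits with a library left out are of 3 kinds, edgeR, DESeq2 and edgeR with the length correction, and ranges are over all 18. They called 0 to 23 members higher and 0 to 13 lower, and over all genes 3 to 3030 higher and 5 to 3089 lower. For the calls with the length correction, the 6 fits gave 0 to 9 higher and 0 to 13 lower. Over all genes, the length correction called 981 higher and 1128 lower, the principal transcript length (chosen after seeing the data) 907 and 1040, and limma 915 (pseudocount 1) and 896 (pseudocount 0.1) lower. Of all calls, 49.4% were higher in edgeR, 58.3% with upper quartile scaling and 74.5% with limma at either pseudocount, where the median log2 fold change of all genes was 0.02, 0.06, 0.09 (pseudocount 1) and 0.11 (pseudocount 0.1). Among members, DESeq2 called 5 lower, the length correction 4 higher and 7 lower, and the principal transcript length 3 higher and 7 lower. With the length correction and no filter on low counts, 8 were higher. The cause of these moves was not tested.

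Among the genes given in every library, the length correction turned 8 negative, and here the values follow with the deposited length, the principal transcript length where it also turned them, and the range over the 18 fits. Pomp had -0.13 (-0.17 to 0.31). Psma6 had -0.06 and -0.07 (-0.09 to 0.36). Psmb5 had -0.25 and -0.26 (-0.34 to 0.23). Psmb6 had -0.10 and -0.14 (-0.13 to 0.31). Psmb7 had -0.14 and -0.16 (-0.17 to 0.23). Psmd6 had -0.01 and -0.02 (-0.07 to 0.39). Psme2 had -0.27 and -0.28 (-0.37 to 0.16). Psmg1 had -0.19 and -0.20 (-0.23 to 0.21). Of the other members, Psmb1, Psmb4, Psmd7 and Psmg4 turned negative too, at -0.10, -0.02, -0.20 and -0.14. Psmd10 turned positive with upper quartile scaling (0.01) and limma (0.06 and 0.07), and ranged from -0.37 to 0.06. Over all named genes and alternatives, 598 values kept direction and call, 217 lost the call, 30 gained it and 67 changed sign. Low counts limit Psmg3, Psme2b, Psmb8 and Psmb9.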

Other observations

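Of 10 genes known to act on proteasome genes, by driving their transcription or by processing a factor that does, 2 rose and 3 fell, where 24.6% of all genes were called. Nfe2l1, the factor that drives proteasome genes when the proteasome is impaired, had 593, 690 and 686 CPM in Ctrl and 469, 533 and 541 in Sox2 cKO. The groups did not overlap. Its log2 fold change was -0.35 (adjusted p = 0.027 from edgeR), and -0.24 (adjusted p = 0.060) with the length correction. Stat3 fell by 0.22 and Ddi2 by 0.32, and neither was called with the length correction. Ngly1, the enzyme that strips sugars from Nfe2l1, and Nfyc, a subunit of NF-Y, rose by 0.32 and 0.35 (adjusted p = 0.047 and 0.028), with 0.32 and 0.19 (adjusted p = 0.057 and 0.13) after the correction. Nfya and Nfyb, the other NF-Y subunits, had 0.03 and 0.09. The single gene of the list called with the length correction was Vcp, an unfolding ATPase, at -0.22 (adjusted p = 0.047).

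Of 10 genes for ubiquitin and its activation, 1 rose and 1 fell, where 12.2% and 12.4% of all genes did so. Ubb, a polyubiquitin gene, had 785, 591 and 620 CPM in Ctrl and 955, 889 and 833 in Sox2 cKO (0.42, adjusted p = 0.027 from edgeR, and 0.18, adjusted p = 0.15, with the length correction). Uba1, the main activating enzyme of ubiquitin, had 350, 424 and 386 in Ctrl and 281, 306 and 322 in Sox2 cKO (-0.35, adjusted p = 0.028, and -0.29, adjusted p = 0.043, with the correction). The groups did not overlap for either gene, as for 44.7% of all genes. Genes of these 2 lists other than Nfe2l1 were named after their values were seen.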
